A study of Mus musculus with 12 samples.

Results

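The genes of the MHC class II pathway were examined for called peaks of H3K4me3, H3K4me1, H3K27me3 and H3K9me3 in crypts and villi of the mouse small intestine. The 6 genes were H2-Aa, H2-Ab1 and H2-Eb1, which encode chains of the classical class II molecules, H2-DMa, which encodes a chain of the peptide exchange factor, Cd74, which encodes the invariant chain, and Ciita, the class II transactivator. They were taken by name, 6 of 21829 protein-coding genes of the GENCODE M21 annotation, with each peak that touched the gene body or 5 kb on either side, which gave 58 of the 169072 peaks in the 8 lists. Crypts, the proliferative compartment with the stem cells, were released from tissue with EDTA, and villi, the differentiated compartment, were scraped off, and the strain, genotype, age and sex of the mice are not given in the sources used here. Each modification was measured in 1 library of crypts and 1 of villi, so their differences have no replicate check and no test was made. The lists give position and score of each peak, and the depth behind them is unknown.

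Class II molecules present peptides from the endocytic pathway to CD4 T cells. Professional antigen-presenting cells make them constitutively, and the epithelium of the small intestine is known to make them as well, with interferon gamma as an inducer. At their promoters, RFX and NF-Y bind the X and Y boxes and recruit CIITA, which does not bind DNA itself and whose gene is the regulated step. H3K4me3 is known from active and bivalent promoters and H3K4me1 from enhancers and the flanks of promoters, whereas H3K27me3 and H3K9me3 are marks of silent chromatin.

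The promoter sequences are shown with their matches to the boxes through which class II genes are known to be read. The RefSeq table of GRCm38.p6 promoters, with 250 bases before the start and 50 from the start on, had an entry for 3 of the 6 genes, H2-Aa, H2-Eb1 and H2-DMa. They are given 5′ to 3′, together with H2-DMb1 and H2-Eb2, class II genes of the same region with and without a peak. Capitals mark matches to the Y box core ATTGG and to the X box core, a pattern of 11 bases with any base allowed at 4 of them, both searched on both strands.
H2-Aa, chr17:34287774-34288073, reverse strand: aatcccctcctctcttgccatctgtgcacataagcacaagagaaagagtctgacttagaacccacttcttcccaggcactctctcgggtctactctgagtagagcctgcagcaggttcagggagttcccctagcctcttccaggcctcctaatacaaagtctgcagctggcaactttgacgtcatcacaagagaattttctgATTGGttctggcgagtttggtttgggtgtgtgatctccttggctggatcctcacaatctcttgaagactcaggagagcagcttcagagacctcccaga
H2-Eb1, chr17:34305617-34305916, forward strand: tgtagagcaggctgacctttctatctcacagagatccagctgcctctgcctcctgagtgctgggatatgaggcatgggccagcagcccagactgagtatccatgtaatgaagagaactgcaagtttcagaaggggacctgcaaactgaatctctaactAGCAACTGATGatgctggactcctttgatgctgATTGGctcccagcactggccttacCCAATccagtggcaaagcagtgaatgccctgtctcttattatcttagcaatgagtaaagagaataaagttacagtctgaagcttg
H2-DMa, chr17:34122582-34122881, forward strand: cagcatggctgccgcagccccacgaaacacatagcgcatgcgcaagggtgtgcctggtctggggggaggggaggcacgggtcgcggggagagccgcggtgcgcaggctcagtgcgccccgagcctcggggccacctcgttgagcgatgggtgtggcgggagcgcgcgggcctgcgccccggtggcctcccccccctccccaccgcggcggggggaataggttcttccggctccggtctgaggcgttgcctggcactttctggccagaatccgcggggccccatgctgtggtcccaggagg
H2-DMb1, chr17:34152941-34153240, forward strand: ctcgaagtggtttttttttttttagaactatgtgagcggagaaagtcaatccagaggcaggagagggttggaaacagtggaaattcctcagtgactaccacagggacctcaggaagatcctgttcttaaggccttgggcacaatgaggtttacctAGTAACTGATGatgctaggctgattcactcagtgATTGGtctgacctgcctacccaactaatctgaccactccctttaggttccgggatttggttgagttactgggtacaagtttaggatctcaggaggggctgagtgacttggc
H2-Eb2, chr17:34325425-34325724, forward strand: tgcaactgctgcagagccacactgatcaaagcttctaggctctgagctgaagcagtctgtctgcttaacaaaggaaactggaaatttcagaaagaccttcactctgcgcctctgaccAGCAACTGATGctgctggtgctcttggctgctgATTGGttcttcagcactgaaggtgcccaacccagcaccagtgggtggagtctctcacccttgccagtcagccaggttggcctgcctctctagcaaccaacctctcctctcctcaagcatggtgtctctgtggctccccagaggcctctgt
With the start site as position 0, H2-Eb1 had the X box core AGCAACTGATG at -92 and ATTGG at -59. H2-Aa had ATTGG at -48 and no match to the X box pattern. The pattern would miss a box with other letters, so a missing match is not a missing box. CCAAT, the Y box core on the opposite strand, lay at -35 of H2-Eb1. The Y box core was in 37.4% and the X box core in 3.09% of 32851 promoters, and 1.42% held both. These promoters were poor in CpG, with 3 in H2-Aa and 0 in H2-Eb1, against a median of 7 over the table. The H2-DMa promoter shown, the upstream of 2 entries, had 29 CpG, more than 87.1% of promoters, and no match to either box. It lies in the peak shared with Brd2. The second H2-DMa entry, within the gene, had 0 CpG and ATTGG at -198. Neither entry covers the H2-DMa start sites at 34135628 and 34135654, so that promoter was not searched. H2-Eb2 carried the same X box letters as H2-Eb1, at -133, and no H3K4me3 peak touched its window in either compartment.

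H3K4me3 was called at the promoter of all 6 genes in crypts and in villi, where a promoter is 1 kb on either side of the start of a protein-coding transcript. By this rule 57.7% of all protein-coding genes carried a promoter peak in crypts, 57.9% in villi and 56.6% in both. With the 5′ end of the gene model as the only start site, the count was 4 of the 6 genes in each compartment, against 54.7% of all genes in crypts and 54.9% in villi. H2-Ab1 and Ciita dropped out, since their peaks lie at start sites inside the gene model. All 11 H3K4me3 peaks over these genes in crypts overlapped 1 of the 11 in villi, as 93.3% of all crypts peaks and 90.6% of all villi peaks did with the other compartment. At H2-Aa, on chromosome 17 from 34282744 to 34287823 on the reverse strand, the crypts peak was chr17:34286064-34287878 and the villi peak chr17:34285061-34287983. H2-Ab1, on the forward strand from 34257689 to 34269419, carried chr17:34262911-34265373 in crypts and chr17:34262769-34265608 in villi. At H2-Eb1, from 34305867 to 34316674 on the forward strand, the peaks were chr17:34305657-34307047 in crypts and chr17:34305518-34308537 in villi. In all 3 classical genes the peak began just upstream of the coding start sites and lay mostly inside the gene.

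Each of the 7 H3K4me3 peaks over a start site was wider in villi than in crypts, by very different amounts. The H2-Eb1 peak measured 1391 bp in crypts but 3020 bp in villi, a log2 ratio of 1.12. Of 14941 pairs of 1 crypts and 1 villi H3K4me3 peak, 129 had a ratio as high, which is 0.863%. The H2-Aa peak grew from 1815 bp in crypts to 2923 bp in villi, a log2 ratio of 0.69 that 3.16% of pairs reached. Both extended mainly into the gene, since the villi peak reached 1490 bp further downstream and 139 bp further upstream at H2-Eb1, and 1003 bp and 105 bp at H2-Aa. These 2 genes stood apart from the rest. The H2-Ab1 peak went from 2463 bp to 2840 bp, with a log2 ratio of 0.21. Cd74 was close to it, with 3153 bp in crypts, 3574 bp in villi and a ratio of 0.18. Ciita, with 1729 bp and 1805 bp, and the downstream H2-DMa start, with 1493 bp and 1607 bp, had ratios of 0.06 and 0.11. Over all pairs the median log2 ratio was -0.03, with quartiles of -0.17 and 0.11, and 42.8% of pairs were wider in villi. Of the 11 pairs over these genes, 9 were wider in villi, the exceptions being peaks upstream of H2-Eb1 and downstream of H2-DMa, and 2 reached 1.5 times the crypts width, which 4.24% of all pairs did. The H2-Eb1 value depends on the measure. Its whole window, with the peaks beside the start site, gave a log2 ratio of covered bases of 0.57, below that of H2-Aa at 0.69. Merging peaks under 1 kb apart gave a log2 width ratio of 1.82.

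**Figure D1:**
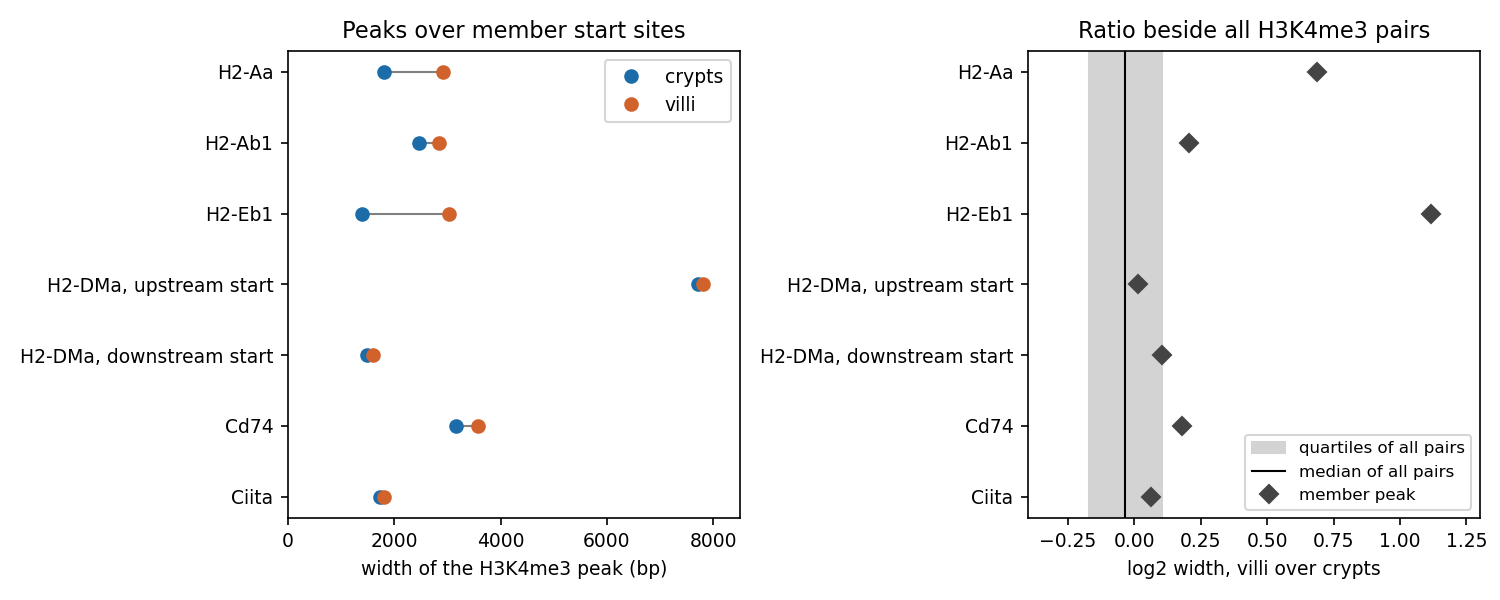
Widths in bp of the H3K4me3 peaks over start sites of the 6 genes in crypts and villi (left), and their log2 width ratio, villi over crypts, beside the median and quartiles of all 14941 pairs (right); each point is 1 peak or pair of 1 library per compartment. H2-Eb1 at 1.12 and H2-Aa at 0.69 lie far to the right of the quartiles, and the upstream H2-DMa start at 0.01 lies within them.

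The score places these peaks within their own list, and it is not comparable between libraries as a level. The upstream H2-DMa peak scored above 98.6% of the crypts list and 98.3% of the villi list. H2-Ab1 scored above 67.4% in crypts and 78.1% in villi, and H2-Eb1 above 37.3% and 57.2%. H2-Aa, Cd74, Ciita and the downstream H2-DMa start lay in the lower part of both lists, between 31.4% and 40.5% in crypts and between 44.2% and 46.6% in villi. With the top 50% of each list by score, an H3K4me3 promoter peak was therefore left at 2 of the 6 genes in crypts and at 3 in villi, against 40.9% and 41.7% of all genes under the same rule. H2-DMa passed in both only through the peak shared with Brd2, since its downstream peak scored above 31.8% and 46.6%. Of the 11 pairs, 9 ranked higher in villi, against 54.6% of all pairs.

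Ciita, on chromosome 16 from 10480059 to 10528418 on the forward strand, has 6 coding start sites in the annotation, in 3 groups along the gene. The gene is known to have separate promoters for dendritic cells, for B cells and for cells induced by interferon gamma, in this order from 5′ to 3′, which the annotation does not label. H3K4me3 was called over the group furthest downstream, at 10489746, 10489781 and 10489783, as chr16:10489442-10491170 in crypts and chr16:10489375-10491179 in villi. The first group, at 10480059 and 10480164, lay 9383 bp and 9278 bp from that peak in crypts and 9316 bp and 9211 bp in villi. The start site at 10488279 lay 1163 bp from it in crypts and 1096 bp in villi. No other H3K4me3 peak touched the gene or its flanks, and both compartments thus had the peak at the same group of start sites. H3K4me1 in crypts lay there in 2 pieces, of 719 bp over the start sites and 651 bp after them, and in villi in 1 peak of 1719 bp from 10489316 to 10491034. Further H3K4me1 peaks lay between the first and second group, with 1324 bp in crypts and 2254 bp in villi, and after the last group, with 4291 bp beginning 4196 bp after it in crypts and 4788 bp beginning 3743 bp after it in villi. The latter peak scored above 99.1% of the villi list and 72.7% of the crypts list. A villi peak of 1783 bp near the end of the gene, from 10524585 to 10526367, had no counterpart in crypts.

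**Figure D2:**
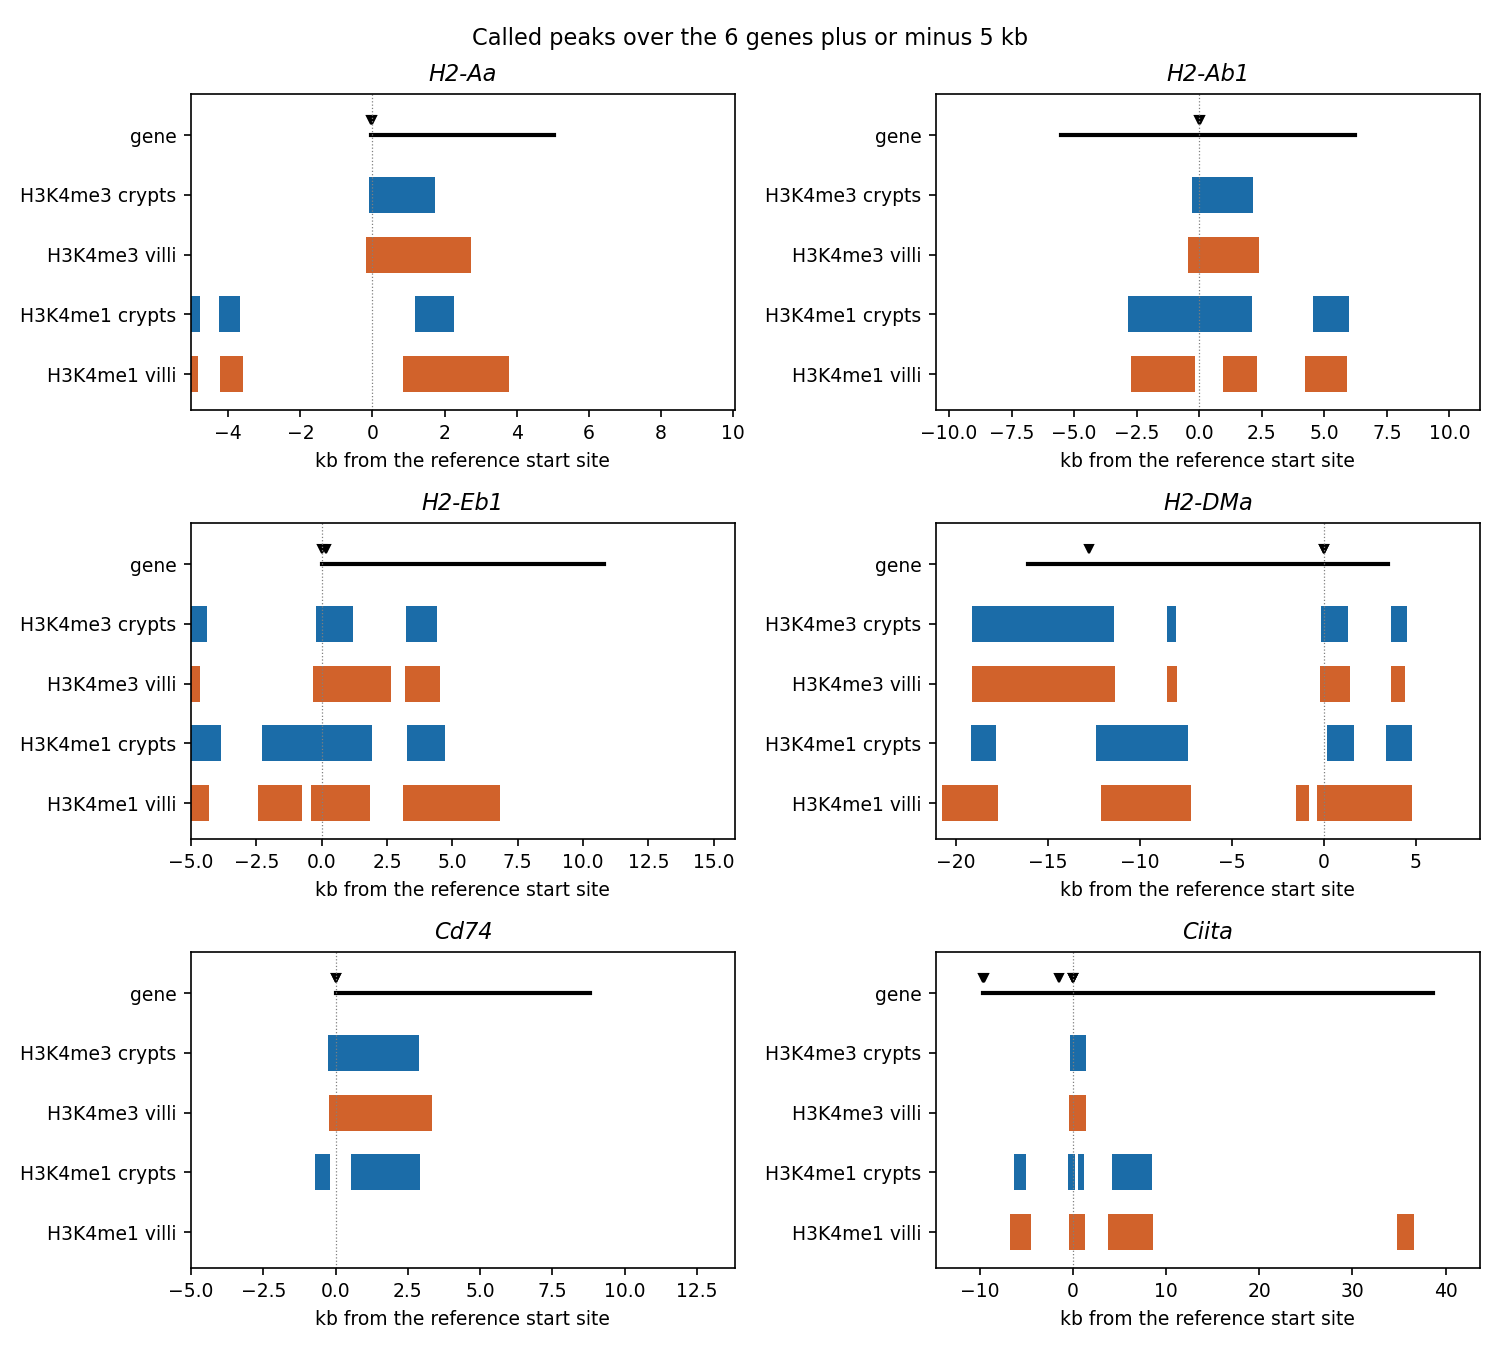
Called H3K4me3 and H3K4me1 peaks over each of the 6 genes and 5 kb on either side, in kb from 1 coding start site per gene (dotted line), transcription to the right; black bars are genes, triangles coding start sites, blue boxes crypts and orange boxes villi, cut at the window. Cd74 has no H3K4me1 peak in villi, and at Ciita H3K4me3 covers the last group of start sites alone.

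H2-DMa has H3K4me3 at both groups of its start sites, and the peak at the first is shared with another gene. On chromosome 17 from 34119541 to 34139101, the gene has a coding start site at 34122832 and a pair at 34135628 and 34135654. The peak over the first was chr17:34116485-34124205 in crypts, 7721 bp, and chr17:34116492-34124291 in villi, 7800 bp. It also held the start site of Brd2, a bromodomain gene transcribed in the other direction, and the lists cannot divide it between the 2 genes. The peak over the downstream pair, chr17:34135458-34136950 in crypts and chr17:34135414-34137020 in villi, held no other coding start site. Narrower H3K4me3 peaks lay in an intron, 451 bp in crypts against 545 bp in villi, and after the gene, 861 bp against 762 bp. Around this pair the H3K4me1 peaks differed more. Crypts had 1432 bp and 1389 bp in separate peaks, neither over the start sites, whereas villi had 1 peak of 5165 bp from 34135278 to 34140442 over them. A further 696 bp peak upstream was called in villi alone. Inside the gene, shortly after the first start site, H3K4me1 spanned 5003 bp in crypts, wider than 95.3% of that list, and in villi 4864 bp, wider than 94.7%.

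Cd74 was the 1 gene of the 6 whose whole window had a mark in crypts and none of it in villi. The gene lies on chromosome 18 from 60803848 to 60812652 on the forward strand. H3K4me3 was called over its start sites as chr18:60803591-60806743 in crypts and chr18:60803625-60807198 in villi. In crypts, H3K4me1 flanked the start with peaks of 529 bp, ending 181 bp before the first start site, and 2388 bp, beginning 516 bp after the second. No H3K4me1 peak touched the Cd74 window in villi, where the closest one lay 26792 bp from the start site. Both crypts peaks were weak in their list, above 25.1% and 35.1% of it. The names of the villi peaks skip 4 numbers over the 70832 bp between the retained neighbours of the Cd74 window, so entries may have been taken out of this list there, at positions that are not known. H3K4me1 was thus called in the window of 6 of the 6 genes in crypts and 5 in villi, against 69.1% and 68.8% of all genes, and with the top 50% of each list by score the order turned, to 4 in crypts and 5 in villi, against 51.5% and 52.9%. Of 15091 genes with an H3K4me1 peak in this window in crypts, 4.43% had none in villi.

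At the other genes H3K4me1 was called in both compartments and its extent changed. Within 1 kb of a start site it was found at 5 of the 6 genes in crypts and at 5 in villi, against 57.9% and 56.1% of all genes, and at 4 in both, against 52.2%. With the top 50% by score these were 2 genes in crypts and 5 in villi, against 35.1% and 36.0% of all genes. With the 5′ end alone they were 2 in each, against 54.0% and 51.9% of all genes. Of the 5 genes with this promoter call in crypts, 1 lacked it in villi, Cd74, against 9.83% of such genes. H2-Aa had the promoter call in villi alone, as its peak inside the gene grew from 1079 bp, beginning 1177 bp after the start site, to 2950 bp, beginning 837 bp after it. Upstream of H2-Aa, a villi peak of 4765 bp spanned the place of 2 crypts peaks, of 584 bp and, outside the window, 1689 bp. At H2-Eb1 a crypts peak of 4240 bp over the start sites faced villi peaks of 1703 bp and 2239 bp, so that villi had pieces where crypts had 1 peak. The H2-Eb1 peak inside the gene went from 1465 bp to 3699 bp, and the one upstream from 1827 bp to 791 bp, a log2 ratio of -1.21. Of the 9 H3K4me1 pairs of 1 crypts and 1 villi peak, 7 were wider in villi, against 49.2% of all pairs, and 4 by at least 1.5 times, against 10.1%. H2-Ab1 was also split at its start in villi. There, crypts had 1 peak of 4956 bp across the start sites, and villi had peaks of 2560 bp and 1352 bp of which the former ended 176 bp before the first start site and the latter began 897 bp after the second. Altogether 18 H3K4me1 peaks were called over the 6 genes in each compartment, of which 16 in each overlapped a peak of the other, against 81.7% of all H3K4me1 peaks in crypts and 82.1% in villi. With a reciprocal overlap of 50% this fell to 7 of 18 in each, against 68.1% and 67.3%.

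The share of each window covered depends on gene length, since a peak of the same width fills less of a longer window. In crypts, the H3K4me3 peak covered 1815 bp of the 15080 bp window at H2-Aa and 1729 bp of 58360 bp at Ciita. H3K4me3 covered 12.0% of the H2-Aa window in crypts and 19.4% in villi, and 15.2% and 22.7% of the H2-Eb1 window. The H2-Ab1 window was covered to 11.3% and 13.1%, that of Cd74 to 16.8% and 19.0%, that of H2-DMa to 35.6% and 36.2%, and that of Ciita, the longest gene, to 2.96% and 3.09%. At H2-DMa, the peak shared with Brd2 made up 7721 of 10526 covered bp in crypts and 7800 of 10714 in villi. All 6 were thus more covered in villi, as were 42.5% of genes with a peak in either compartment. The median over all genes was 2.66% in crypts and 2.60% in villi, below each of the 6 genes. For H3K4me1, coverage was higher in villi at 4 of the 6 genes, against 52.0% of genes. It was 12.8% in crypts and 25.1% in villi at H2-Aa, 31.1% and 46.6% at H2-DMa, 33.0% and 40.0% at H2-Eb1, and 12.0% and 18.1% at Ciita. It was lower in villi at H2-Ab1, with 29.4% and 25.7%, and at Cd74, with 15.5% and 0%. The median over all genes was 5.13% in crypts and 4.92% in villi. Width, rank and coverage of called peaks do not give the level of a mark. The paper reports that spike-in normalized H3K4me1, H3K4me3 and H3K9me3 intensities fell in villi. It ascribes this to cleavage of the H3 tail, which was not tested here. In bulk chromatin, the number of cells with a mark cannot be told apart from its amount per cell.

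**Figure D3:**
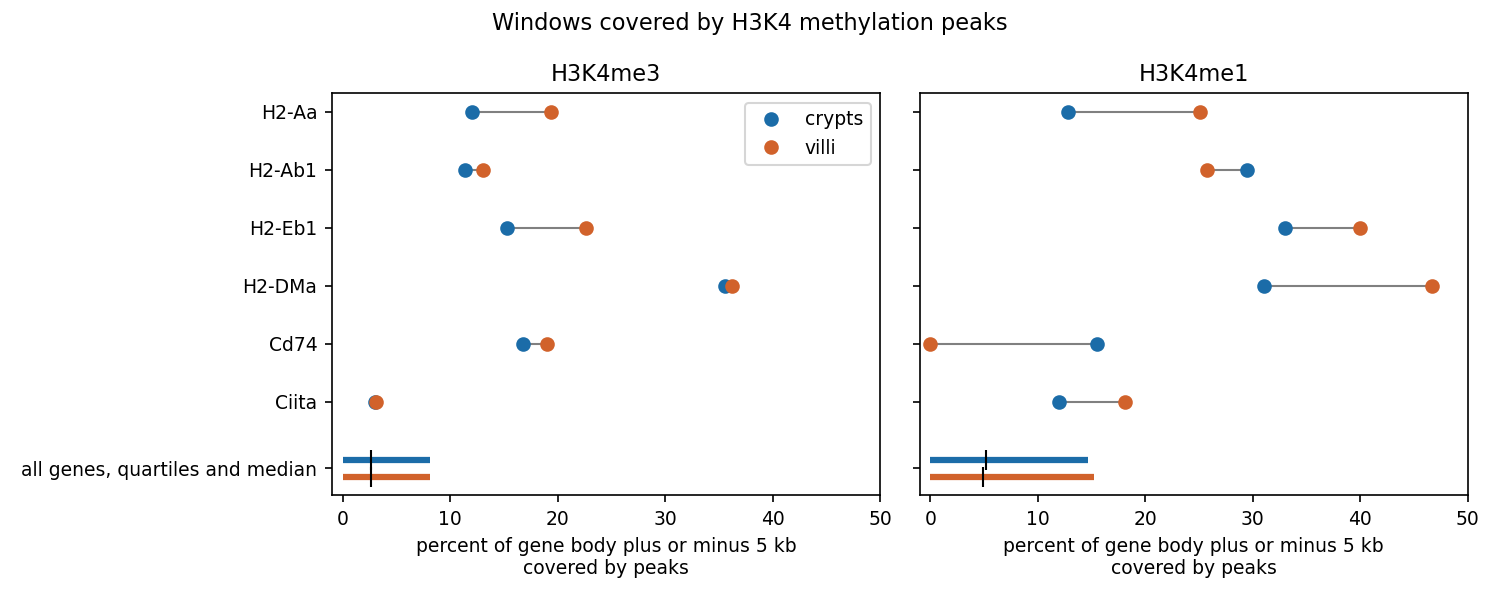
Percent of the gene body plus or minus 5 kb covered by H3K4me3 (left) and H3K4me1 (right) peaks in crypts and villi, 1 library each; the bars at the bottom span the quartiles of all 21829 protein-coding genes, with the median as a tick. Ciita is the gene nearest to the median for H3K4me3, and Cd74 falls from 15.5% to 0% for H3K4me1.

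No H3K27me3 or H3K9me3 peak touched a window of the 6 genes in either compartment. None of the H3K9me2 regions did either, but only 6 were listed for crypts and 3 for villi over the genome, too few to describe these genes. H3K27me3 was called in this window at 17.9% of all genes in crypts and 23.0% in villi, and H3K9me3 at 3.89% and 3.12%. Either mark in either compartment was found at 27.4% of genes, and at the promoter at 17.1%, against 0 of the 6 genes. All 6 genes had H3K4me3 in both compartments with neither of these marks, as 44.9% of genes had by the window and 48.8% by the promoter. The closest H3K27me3 peak to the classical genes lay 85526 bp from a start site of H2-Eb1 in crypts and 85477 bp in villi. Around Ciita the closest one lay 576936 bp from the last start site in crypts and 382368 bp in villi. The names of the H3K27me3 peaks skip 1 number in crypts and 3 in villi between the retained neighbours of the class II genes, and 3 in each compartment around Ciita. Those of the H3K9me3 peaks skip 3 in crypts and 5 in villi around the class II genes of chromosome 17, and 0 and 7 around Ciita. Around Cd74 at most 1 was skipped for either mark.

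The class II region of chromosome 17, from H2-Oa at 34092340 to the end of H2-Eb2 at 34341412, holds 14 protein-coding genes, among them 4 of the class I peptide supply. H3K4me3 covered 10.4% of it in crypts and 12.5% in villi, and H3K4me1 15.9% and 22.5%. An H3K4me3 promoter peak was called at 10 of the 14 genes in both compartments, and H2-Oa, H2-DMb2, H2-Ob and H2-Eb2 had none. H2-Oa and H2-Ob encode the chains of an inhibitor of peptide exchange that is known from B cells. H2-DMb1, which encodes the partner of the H2-DMa chain, was the other class II gene with a peak, chr17:34153105-34154089 of 985 bp in crypts and chr17:34153056-34154578 of 1523 bp in villi. Its promoter carried both boxes, with the X box letters AGTAACTGATG at -95. Matches to both boxes were thus found at promoters with and without a peak, H2-Ob and H2-Oa among the latter. The X and Y matches lay at -88 and -57 in H2-Ob, but further apart, at -141 and -43, in H2-Oa. H3K9me3 was called once in the region, in villi over H2-Oa from 34094202 to 34095312.

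**Figure D4:**
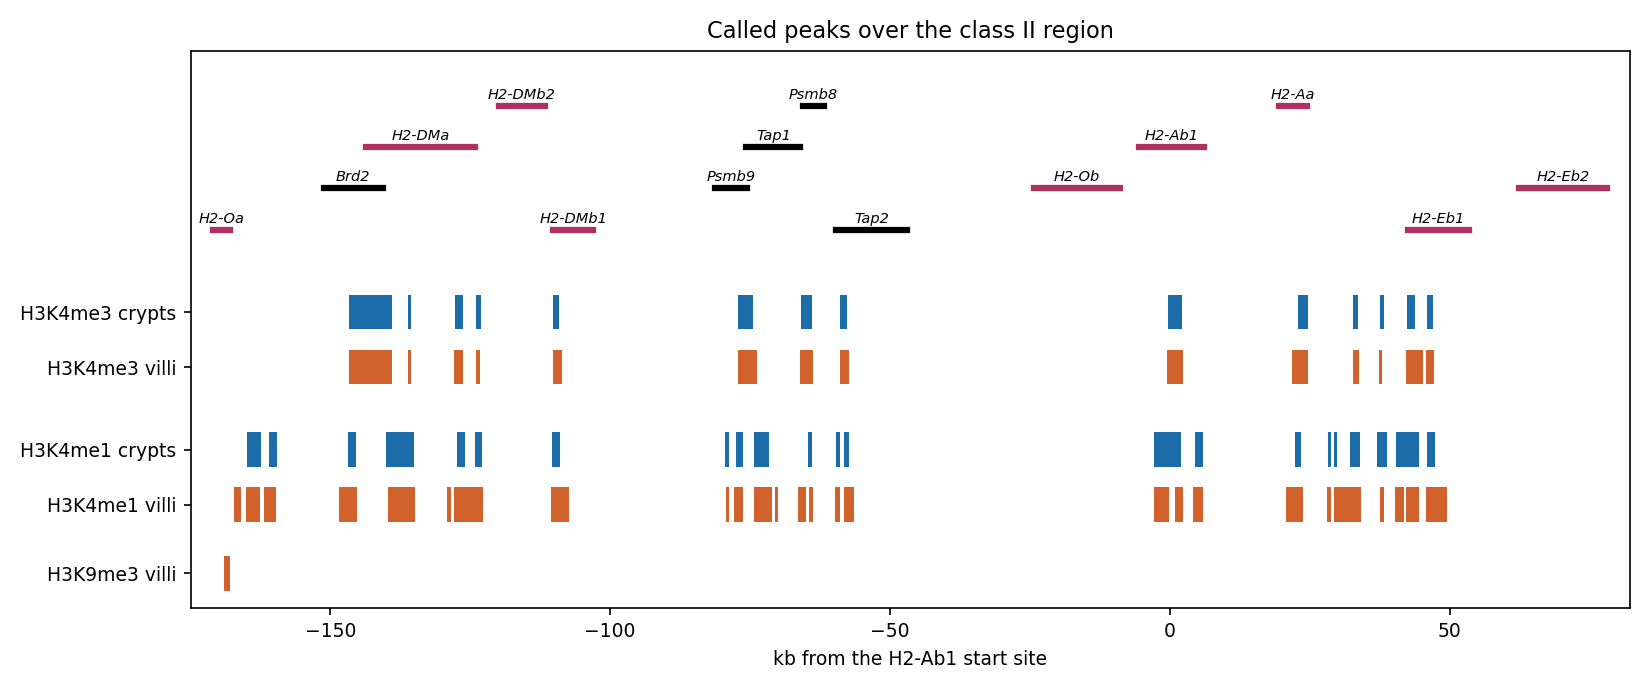
Genes and called peaks of the class II region in kb from the H2-Ab1 start site, blue for crypts and orange for villi, with genes of the H2 family in red. The H3K4me3 peaks of both compartments, 14 each, fall on the same places, and no peak of this mark lies over H2-Ob or H2-Eb2.

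Outside the class II genes, the listed genes of the pathway carried the H3K4me3 promoter peak in both compartments with few exceptions, against 56.6% of all genes. All 7 of the promoter factors Rfx5, Rfxap, Rfxank, Nfya, Nfyb, Nfyc and Creb1 had the promoter peak in both, and 1 of the 7 peaks was wider in villi, that of Rfxank. All 7 genes of interferon gamma signalling had it as well, and all 7 peaks were wider in villi, against 42.8% of all pairs. Their median log2 ratio was 0.15. Among them Ifngr2, a chain of the receptor, had 4037 bp in crypts and 5870 bp in villi, and Socs1, an inhibitor of the pathway, 2778 bp and 3700 bp. Of 7 genes of antigen processing and class II turnover, 6 had the peak in both and March1, a ubiquitin ligase for class II, in neither. All 9 class I genes had it in both, with 7 wider in villi and a median of 0.21, although Tap1 and Psmb9 share 1 peak. For the 6 genes studied here the median was 0.19, and over all pairs it was -0.03. None of these lists had an H3K27me3 promoter peak, and 17.1% of all genes had one of H3K27me3 or H3K9me3 in either compartment.

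Cells other than epithelium can make class II, so their markers were read in the same lists. H3K4me3 was at the promoter of all 6 epithelial and all 7 villi markers in both compartments, against 56.6% of all genes. Olfm4, a stem cell gene, had it in crypts alone. The peaks of Lgr5 and Mki67, genes of stem and dividing cells, narrowed from 2989 bp to 1356 bp and from 4044 bp to 2166 bp in villi. Lyz1, a Paneth cell gene, had no H3K4me3 promoter peak in either compartment. Of 21829 genes, 12641 had an H3K4me3 promoter peak in villi, and 12364 of them had it in crypts too. Of 7 markers of T cells and leukocytes, 4 had H3K4me3 in villi alone, namely Ptprc, the neighbouring Cd3e and Cd3g, and Cd8a. The other 3 had it in neither, and H3K4me3 covered slightly less of their windows in villi, with 2.11% and 1.63% at Cd247, 4.86% and 3.77% at Lck, and 4.55% and 3.72% at Itgae. The 4 calls in villi went in the same direction as the widths at H2-Eb1 and H2-Aa, and so did the peaks of epithelial and villi markers. Of these, 5 of 6 each were wider in villi, against 42.8% of all pairs. Among those, the peak of Krt20, a keratin of differentiated epithelium, had a log2 ratio of 0.79, and that of Lct, the lactase gene, 0.68. None of the 7 markers of dendritic cells and macrophages had an H3K4me3 promoter peak in either compartment. Of 5 B cell markers, Pax5 had one in both, 539 bp and 832 bp wide beside H3K27me3, and Cd79a, Cd79b, Ms4a1 and Cd22 had none. Of 6 mesenchymal markers, 1 had the peak in both and 1 in villi alone. The part of cells outside the epithelium in the class II peaks was not tested.

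**Figure D5:**
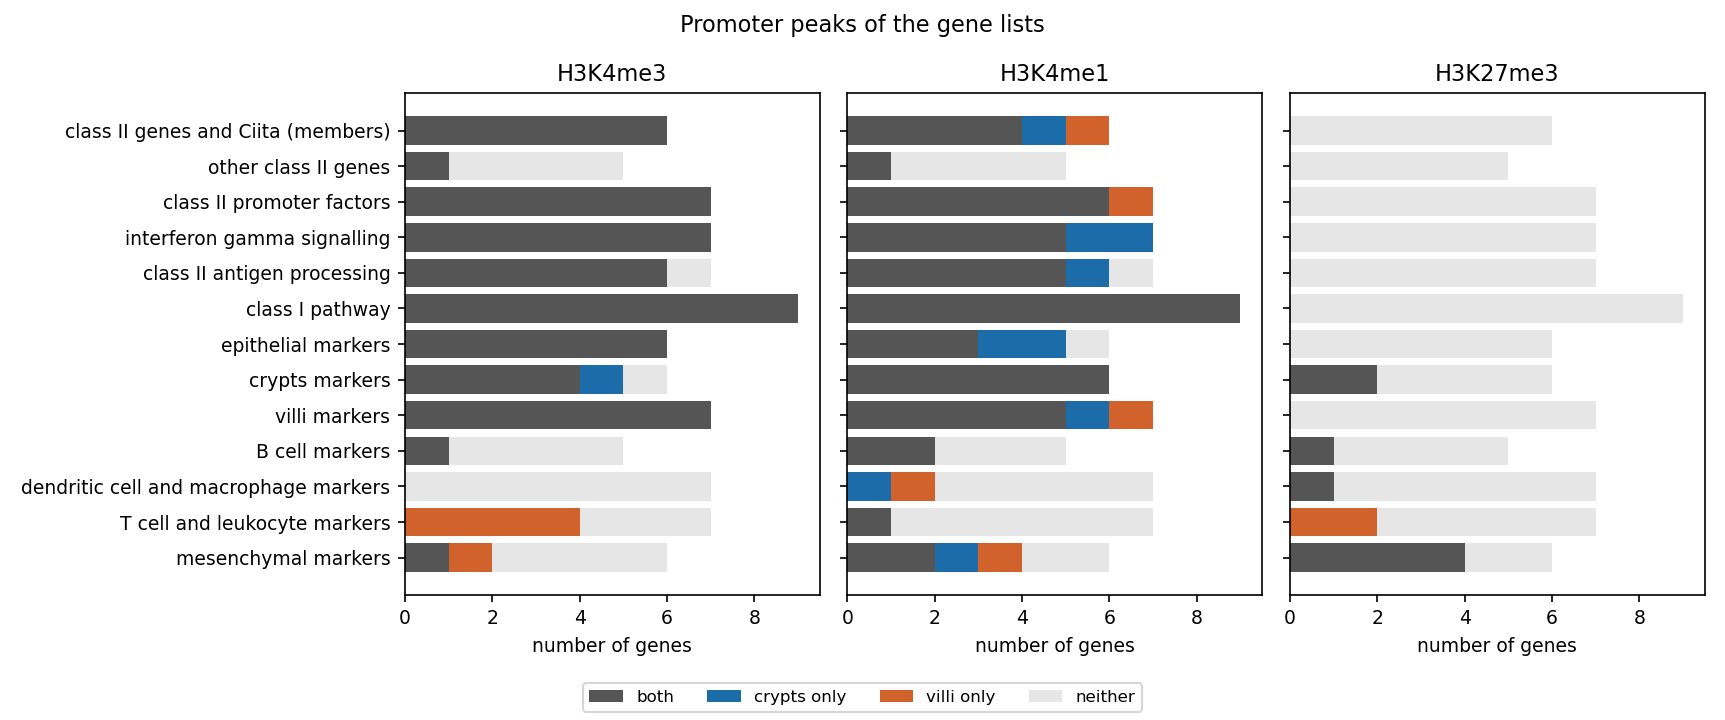
Number of genes of each list with a promoter peak of H3K4me3, H3K4me1 or H3K27me3 in both compartments, crypts only, villi only or neither. The 6 members, Ciita among them, have H3K4me3 in both, and 4 of 7 markers of T cells and leukocytes have it in villi only. Of all genes, 57.9% have it in villi and 56.6% in both.

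The 6 genes also differed among themselves. The mean absolute difference of the covered percent over the 8 lists was smallest between H2-Aa and H2-Ab1, at 3.04 percentage points, and largest between H2-DMa and Ciita, at 14.2. By the same measure over 8 lists, the genes closest to each outside its window were Dcxr for H2-Aa at 0.694 points, Rhog for H2-Ab1 at 0.403, Tspan8 for H2-Eb1 at 0.531, Eif5a for H2-DMa at 0.774, Tmem147 for Cd74 at 0.842 and Ptgfrn for Ciita at 0.199. No other class II gene was among the 3 closest of any of the 6. The covered percent depends on gene length and, at H2-DMa, on the peak shared with Brd2, and so do these differences.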

How the data were processed

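ChIP-seq with a Drosophila spike-in gave 12 libraries (inputs not analysed here) of mouse crypts and villi, of which the 8 peak lists of H3K4me3, H3K4me1, H3K27me3 and H3K9me3 were used and those of H3K9me2 were read once. The authors aligned read pairs to mm10 with Bowtie 1.1.2 and called peaks per library with MACS2 2.1.1, versions as in the submitters' processing notes. A control for peak calling is not given in the sources used here. The score in the deposited lists, 10 or more throughout, was read as −log10 of the p-value that the authors thresholded, although a corrected value would look alike, and no spike-in scaling enters it. It was used only as a rank within a list. Numbers in the peak names have gaps, so entries may have been removed after calling. Genes and start sites came from GENCODE M21 on GRCm38, the assembly of mm10, and promoters from RefSeq on GRCm38.p6. Peaks sharing at least 1 bp were counted as overlapping, and widths were compared where 1 crypts peak met 1 villi peak. Positions are 1-based. Values were computed with Python 3.11.15, NumPy 2.4.6 and pandas 2.3.3, figures with Matplotlib 3.10.9, and the overlap code was tested on 2000 simulated intervals. The genes named are the 6 members, the genes of fixed lists (class II, its promoter factors, interferon gamma signalling, processing, class I and cell markers), the genes of the class II region and the closest of the 3 genes most like each member. Members and lists were chosen with earlier results of these data known. Of the listed genes, H2-Ea and Ifi30 had no protein-coding entry under that name, and 1 marker is not reported here. Alternatives covered the windows, the score, merging and the overlap rule.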

Additional observations from a re-analysis of the deposited data

How the results depend on the processing

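With the top 50% of each list by score, H3K4me3 was left in the window of 2 of the 6 genes in crypts and 3 in villi, at the promoter of 2 and 3, with 2 shared peaks in each compartment and a median covered share of 0% in crypts and 6.53% in villi. H2-DMa was among these genes only through the peak shared with Brd2. H3K4me1 was left in the window of 4 genes in crypts and 5 in villi, against 51.5% and 52.9% of all genes, which turns the order of 6 and 5 in the full lists, and at 2 promoters in crypts, 5 peaks in each compartment were shared, and the median covered share in crypts was 7.20%. With the 5′ end of the gene model as the only start site, H3K4me3 was at the promoter of 4 genes in each compartment and H3K4me1 at that of 2 in each. A reciprocal overlap of 50% left 7 shared H3K4me1 peaks in each compartment. With 1 kb on either side of the gene, the median covered share was 22.8% for H3K4me3 in crypts, 33.6% in villi and 41.2% for H3K4me1 in villi, since shorter windows hold less flank. Of 2 alternatives added after the data were seen, merging peaks under 1 kb apart moved the H2-Eb1 log2 width ratio to 1.82, and covered bases of the window in place of the width gave 0.57. No width ratio changed sign. Of 118 values under the alternatives, 20 moved by more than 1.5 times (for widths, in fold and not in log2). Of the other 98, 52 are H3K27me3 or H3K9me3 values that were 0 throughout, which leaves 46. No paired analysis was possible because there is 1 library per compartment and modification. Depth is unknown, so an absent call is not absence of the mark.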

Other observations

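Cd3e and Cd3g, neighbouring genes for subunits of the T cell receptor complex, carried H3K27me3 promoter peaks in villi alone beside their H3K4me3 promoter peaks. H3K27me3 peaks covered 0% of the Cd3e window in crypts and 47.1% in villi, and 16.8% and 47.6% of the Cd3g window. Ascl2, a stem cell regulator, kept H3K4me3 and H3K27me3 in both compartments, and its H3K27me3 coverage was 14.1% in crypts and 47.6% in villi. H3K27me3 was called more widely in villi at large, with 7611 peaks in crypts and 13797 in villi, a peak in the window of 17.9% and 23.0% of genes, and a median log2 width ratio of 0.32 over 4736 pairs of peaks. These genes have no test, since each compartment has 1 library.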
